A study of Homo sapiens with 6 samples.

Results

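The genes described here are 10 angiogenic growth factor genes and receptors. From the VEGF family they are the ligands VEGFA, VEGFB, VEGFC and PGF, and from the FGF family the ligand FGF2 with the receptors FGFR1 and FGFR4. The PDGF ligands PDGFA and PDGFB and the KIT ligand KITLG complete the list. The genes were chosen by symbol, and all 10 were found among the 39327 rows of the count table that carry a gene identifier. All 10 also passed the filter on low counts, which left 12821 genes for testing. CAL62 is an established wild-type cell line from an anaplastic thyroid carcinoma (ATC), grown in RPMI medium with 10% serum. The cells received 50 nM erianin, a bibenzyl compound from Dendrobium orchids, or an equal concentration of the solvent DMSO, and RNA was taken after 48 h. Each group has 3 libraries. The comparison asks how the transcripts of these genes differ between erianin and DMSO in 1 cell line at 1 dose and 1 time, so it holds for CAL62 cells only.

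VEGF, FGF and PDGF ligands are secreted proteins that bind receptor tyrosine kinases on the cell surface, and the bound receptors pair, phosphorylate each other and feed the MAPK/ERK and PI3K/Akt pathways. VEGFA acts on endothelial cells through KDR and FLT1, VEGFB and PGF bind FLT1, and VEGFC binds FLT4 and drives the growth of lymphatic vessels. FGF2 lacks a signal peptide, is held by heparan sulfate and signals through FGF receptors, PDGFA and PDGFB form dimers that recruit mural cells and fibroblasts, and KITLG (stem cell factor) is the ligand of KIT. Carcinoma cells of the thyroid are known to release several of these ligands, and the receptors KDR, FGFR and PDGFR are targets of the multikinase inhibitors given in ATC.

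The start regions of 7 of the 10 genes matched an entry of the RefSeq promoter table (GRCh38.p14), which does not settle which start CAL62 cells use. The bases just before the start are shown for 4 genes on which the results turn: FGF2, called higher; PGF and FGFR4, which were higher in every erianin library without being called; and VEGFB, which was lower in every erianin library. Capitals mark the GC box GGGCGG, read on both strands with overlapping matches kept. The sequences run 5′ to 3′ on the strand of the gene, at chr4:122826581-122826707 on the plus strand for FGF2, chr14:74955785-74956014 on the minus strand for PGF, chr5:177086665-177086885 on the plus strand for FGFR4 and chr11:64234334-64234537 on the plus strand for VEGFB.
FGF2: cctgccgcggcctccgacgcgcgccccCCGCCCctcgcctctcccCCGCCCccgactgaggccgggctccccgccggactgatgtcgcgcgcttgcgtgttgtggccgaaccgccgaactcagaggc
PGF: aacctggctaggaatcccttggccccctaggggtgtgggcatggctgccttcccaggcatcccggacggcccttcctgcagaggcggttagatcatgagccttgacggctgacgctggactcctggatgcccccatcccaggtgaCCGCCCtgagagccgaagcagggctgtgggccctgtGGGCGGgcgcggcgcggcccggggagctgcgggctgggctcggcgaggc
FGFR4: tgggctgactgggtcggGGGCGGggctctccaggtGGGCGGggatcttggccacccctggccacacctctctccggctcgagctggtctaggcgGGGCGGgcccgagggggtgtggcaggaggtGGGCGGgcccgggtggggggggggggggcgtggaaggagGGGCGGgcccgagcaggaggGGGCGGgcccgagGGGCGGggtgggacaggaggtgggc
VEGFB: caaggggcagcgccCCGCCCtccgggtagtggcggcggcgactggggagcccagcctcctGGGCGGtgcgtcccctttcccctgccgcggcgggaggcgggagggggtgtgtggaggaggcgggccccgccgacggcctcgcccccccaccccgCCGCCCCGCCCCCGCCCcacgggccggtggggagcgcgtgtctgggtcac

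The 4 stretches hold 2, 2, 7 and 5 GC boxes in the order shown. All 7 matched genes have at least 1 GC box in the 250 bases before their RefSeq start, as do 42.6% of the 35116 promoters in the table, and the 250 bases are 68.8% (PDGFA) to 82.8% (VEGFB) G or C. TATAAA was found in KITLG alone, with 1 match, against 10.7% of all promoters. The RefSeq start of KITLG lies 380 bases inside the gene as annotated. Its 250 bases therefore fall within the gene, and no bases before the gene are shown for it. None of the 7 windows held, on either strand, the CCAAT box (CCAAT, in 32.0% of all promoters) or the AP-1 site (TGACTCA, in 4.2%). The cAMP response element (TGACGTCA, in 1.65%) was also absent, as was ACGTG (in 18.5%), 1 form of the hypoxia response core. The form GCGTG was not searched, and it occurs in the stretches shown for FGF2, FGFR4 and VEGFB. These matches describe the letters only.

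Reads counted on named genes ranged from 25776301 to 34107727 per library. DMSO replicate 3 stood apart, with a chi-square per gene of 90.6 and 104 from DMSO replicates 1 and 2. The value was 4.35 between DMSO replicates 1 and 2 and 3.80 to 4.80 among the erianin libraries. From DMSO replicates 1 and 2 to the erianin libraries it was 53.5 to 65.8. These 2 DMSO libraries thus lay nearer to every erianin library than to DMSO replicate 3. The labels number the libraries as replicates without saying that they came from separate cultures, so p-values measure only the spread between these 6 libraries, which may be technical. In RNA from a whole culture, fewer cells of one kind and less RNA per cell cannot be told apart. PAX8, a thyroid lineage factor, was present at 642 to 739 CPM with DMSO and at 419 to 433 CPM with erianin, whereas the thyroid gene TG reached at most 0.381 CPM and TSHR had no read. PAX8 and the matrix gene FN1 were the called markers, both lower with erianin, and FN1 fell from 5816 ± 864 to 3352 ± 254 CPM (SD, n = 3, log2 fold change -0.80, adjusted p = 0.00761). The endothelial markers PECAM1 and CDH5 reached at most 0.293 and 0.164 CPM, and the 8 endothelial markers together summed to 1.83 to 2.80 CPM with DMSO and 4.16 to 4.55 CPM with erianin, most of it TIE1; their part in the results was not tested.

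Of the 10 genes, 2 were upregulated and none was downregulated with erianin in edgeR's quasi-likelihood test, where a call needs an adjusted p (Benjamini-Hochberg) under 0.05 together with a log2 fold change beyond 0.5 in size. Across all genes tested, 8.73% passed the same thresholds, 5.37% higher and 3.36% lower. The upregulated genes were FGF2 and KITLG. VEGFB had an adjusted p under 0.05 with a smaller fold change. The values of the erianin and DMSO libraries did not overlap for 7 of the 10 genes, against 38.7% of all genes tested. VEGFA, PGF, FGF2, FGFR4 and KITLG were higher in every erianin library, which held for 19.5% of all genes, and VEGFB and FGFR1 were lower in every erianin library, which held for 19.3%. The median log2 fold change of the 10 genes was 0.11, against 0.00 over all genes tested. Normalised read counts below are CPM, counts scaled by library total and TMM factors, and log2 fold changes are erianin minus DMSO with their standard error (SE).

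**Figure D1:**
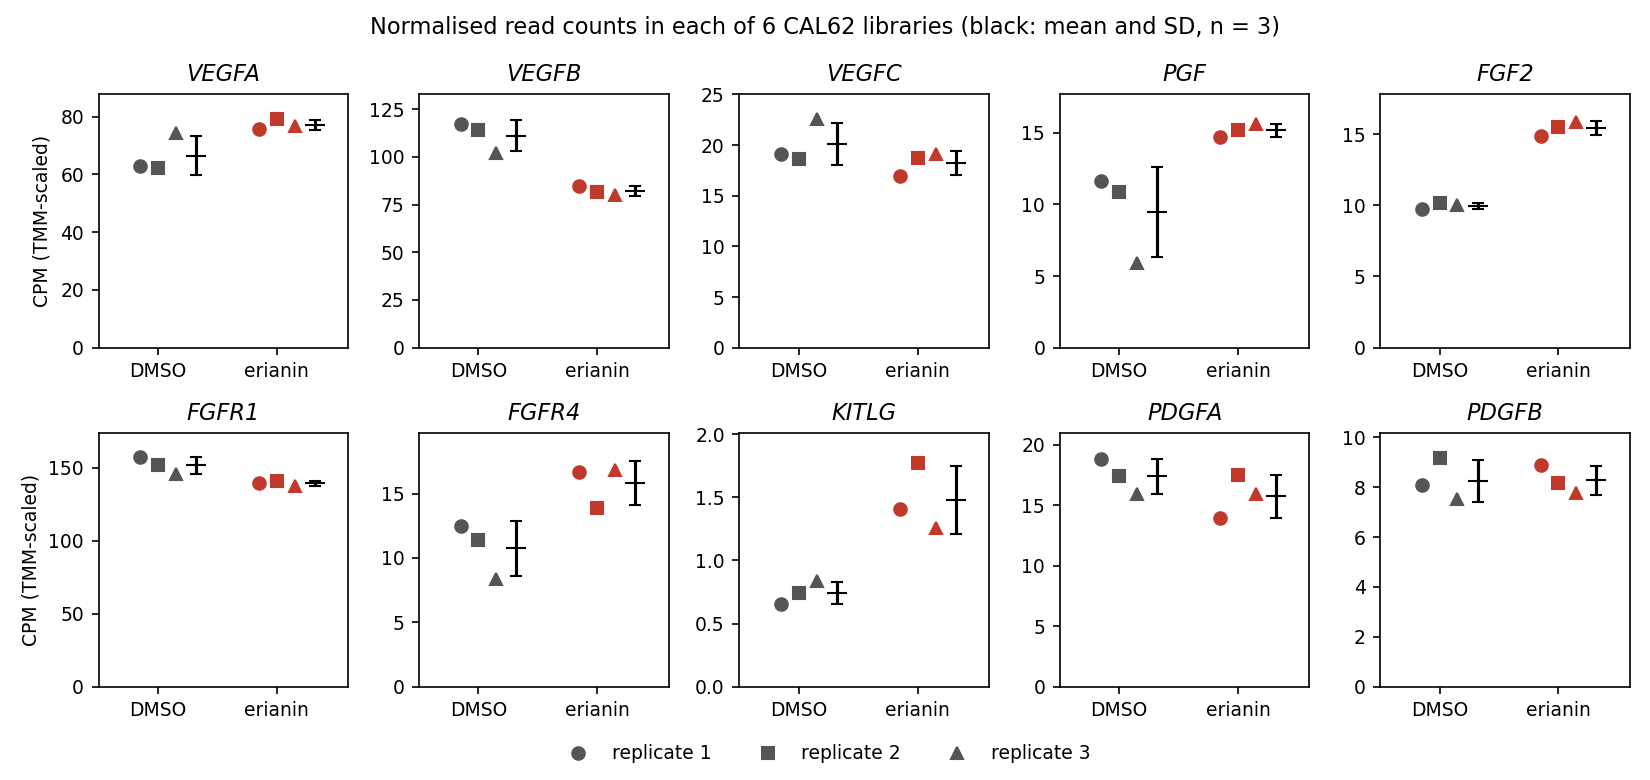
Normalised read counts (CPM, vertical axes from 0, each gene on its own scale) of the 10 genes in 3 DMSO (grey) and 3 erianin (red) libraries; circles, squares and triangles are replicates 1, 2 and 3, and the black bar is the mean ± SD (n = 3). FGF2 lay at 9.73 to 10.2 CPM with DMSO and 14.9 to 15.9 CPM with erianin, and DMSO replicate 3 was the lowest DMSO library for PGF and FGFR4 and the highest for VEGFA.

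FGF2, the heparin-binding fibroblast growth factor (chr4:122826708-122898236, plus strand), had the smallest adjusted p of the 10 genes. Its CPM were 9.73, 10.2 and 10.0 in DMSO replicates 1 to 3 and 14.9, 15.5 and 15.9 in erianin replicates 1 to 3. The groups were tight and lay well apart, and DMSO replicate 3 did not differ from the other DMSO libraries here. The mean rose from 9.97 ± 0.222 to 15.4 ± 0.506 CPM (SD, n = 3), with a log2 fold change of 0.63 (SE 0.10, 95% interval 0.40 to 0.85, adjusted p = 0.00806), which is 1.55-fold. Leaving out DMSO replicate 3 gave 0.63. With any 1 erianin library left out the log2 fold change stayed between 0.61 and 0.64, and the adjusted p rose to between 0.0525 and 0.0612, so the call was lost. FGF2 has a GC content of 37.5% in its longest transcript. Taking out the GC trend of each library lowered its log2 fold change to 0.42 (adjusted p = 0.0434). With DMSO replicate 3 also left out it was 0.29 (adjusted p = 0.0140), and both values were under the fold-change threshold. The median log2 fold change of all genes was -0.083 and -0.087 in these fits, against 0.0014 with all 6 libraries and the GC trend kept. The part of GC content in the difference was not tested.

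NUDT6, a nudix hydrolase gene on the opposite strand, shares 804 exonic bases with FGF2. Whether the counting used strand is not given in the sources used here, so reads in the shared bases cannot be assigned with certainty. NUDT6 had 320 counts over the 6 libraries, at 1.64 ± 0.535 CPM with DMSO and 1.73 ± 0.127 CPM with erianin (SD, n = 3), a log2 fold change of 0.09 (SE 0.26, adjusted p = 0.849). Its level was low beside that of FGF2 and its groups overlapped. Across the 6 libraries the genes whose log2 CPM followed FGF2 most closely were RAB30, a small GTPase, HES1, a Notch target, and SLC30A1, a zinc exporter, with Pearson's r of 0.999, 0.999 and 0.998. This is a description over 6 libraries that fall into the 2 treatment groups.

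FGFR1, the VEGF, FGF or PDGF family receptor tyrosine kinase with the most reads (chr8:38400215-38468834, minus strand), measured 157, 152 and 146 CPM in the DMSO libraries and 140, 141 and 138 CPM in the erianin libraries. Every erianin library lay below every DMSO library, by a small margin. The log2 fold change was -0.12 (SE 0.07, 95% interval -0.27 to 0.03) with an adjusted p of 0.250, and its direction turned in limma on log2(TPM + 1), where it was 0.07. Without DMSO replicate 3 the value was -0.15 with an adjusted p of 0.00323, still within the fold-change threshold. FGFR1 shares 138 exonic bases with LETM2 on the opposite strand, a gene with 1550 counts over the 6 libraries at 8.64 ± 2.73 CPM with DMSO and 7.54 ± 0.624 CPM with erianin (SD, n = 3). The genes closest to FGFR1 over the 6 libraries were IGBP1, AGBL5 and BFAR, with Pearson's r of 0.995, 0.993 and 0.990, again as a description.

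FGFR4, a receptor of the same family (chr5:177086886-177098144, plus strand), was measured at 12.5, 11.4 and 8.35 CPM with DMSO and at 16.7, 13.8 and 16.9 CPM with erianin. DMSO replicate 3 was the lowest library and erianin replicate 2 the lowest of its group, and the groups did not overlap. The means were 10.7 ± 2.14 and 15.8 ± 1.69 CPM (SD, n = 3) and the log2 fold change was 0.56 (SE 0.17, 95% interval 0.17 to 0.95), with an adjusted p of 0.0658 that did not pass. Leaving out DMSO replicate 3 gave 0.40 with an adjusted p of 0.00112, which passed the p threshold and not the fold threshold. With the GC trend removed it was 0.56 (adjusted p = 0.0109), and it also passed both thresholds in DESeq2, with an adjusted p of 0.0277. The call on FGFR4 therefore depended on the setting, while its direction was the same in all 17 alternatives.

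Among the VEGF ligands, VEGFB was lower and PGF and VEGFA were higher in every erianin library, while VEGFC overlapped. VEGFB, a ligand of FLT1 (chr11:64234538-64238793, plus strand), was measured at 117, 114 and 102 CPM with DMSO and at 84.9, 81.4 and 80.1 CPM with erianin. The groups were separated by a gap larger than the range of the erianin libraries, and DMSO replicate 3 was the lowest of the DMSO libraries. The mean was 111 ± 8.09 CPM with DMSO and 82.2 ± 2.49 CPM with erianin (SD, n = 3). The log2 fold change of -0.43 (SE 0.08, 95% interval -0.62 to -0.25, adjusted p = 0.0142) stayed under the threshold of 0.5, so VEGFB was not called. At any fold change, 14.9% of all genes tested had an adjusted p under 0.05. Without DMSO replicate 3 the log2 fold change was -0.497, with an adjusted p of 1.61e-10. With any other library left out it was -0.47 to -0.40 and the adjusted p rose to between 0.0520 and 0.0892, and in limma on log2(TPM + 1) it was -0.23 with an adjusted p of 0.167. The negative direction held in all 17 alternatives.

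VEGFA, the main angiogenic ligand of KDR (chr6:43770184-43786487, plus strand), was measured at 63.0, 62.3 and 74.2 CPM with DMSO and at 75.8, 79.1 and 76.8 CPM with erianin. DMSO replicate 3 was close to the erianin libraries and just below them. The log2 fold change was 0.21 (SE 0.09, 95% interval 0.00 to 0.43, adjusted p = 0.157) and did not pass. Without DMSO replicate 3 it was 0.30 with an adjusted p of 1.37e-05, under the fold-change threshold. HIF1A, the oxygen-regulated factor that acts on the VEGFA gene, was named here after its values were seen. It measured 56.5, 51.0 and 128 CPM with DMSO and 93.8, 85.4 and 83.6 CPM with erianin. DMSO replicate 3 was the highest library for HIF1A. For VEGFA it was the highest DMSO library and lay below every erianin library. The part of HIF1A in the VEGFA values was not tested.

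PGF, placental growth factor (chr14:74941834-74955784, minus strand), was measured at 11.7, 10.9 and 5.91 CPM with DMSO and at 14.7, 15.2 and 15.6 CPM with erianin. DMSO replicate 3 was far below the other 2 DMSO libraries, and the erianin libraries were close together above all of them. The means were 9.49 ± 3.13 and 15.2 ± 0.474 CPM (SD, n = 3). The log2 fold change of 0.68 (SE 0.23, 95% interval 0.13 to 1.23) was larger than that of FGF2, yet the adjusted p was 0.0944. Without DMSO replicate 3 the log2 fold change fell to 0.43 and the adjusted p to 0.000355, so the size of the difference rested in part on that library. PGF passed both thresholds in DESeq2 (adjusted p = 0.0455) and with the GC trend removed (0.67, adjusted p = 0.0343).

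VEGFC, the lymphatic ligand of FLT4 (chr4:176683538-176792727, minus strand), was measured at 19.2, 18.7 and 22.5 CPM with DMSO and at 16.9, 18.7 and 19.1 CPM with erianin. The groups overlapped. The log2 fold change was -0.14 (SE 0.11, 95% interval -0.41 to 0.12, adjusted p = 0.450), and it turned to 0.06 in limma on log2(TPM + 1). VEGFD, the remaining ligand of FLT4, had no read in any library, where 3 counts would correspond to 0.0856 to 0.123 CPM.

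Within the summed reads of the 4 VEGF ligands, VEGFB held 55.5%, 55.4% and 49.8% in the DMSO libraries and 44.2%, 41.9% and 41.8% in the erianin libraries. VEGFA held 29.9%, 30.3% and 36.3% with DMSO and 39.4%, 40.7% and 40.1% with erianin. The shares of the 2 genes lay closer to each other in every erianin library than in any DMSO library. Merged over transcripts, the exons of VEGFA span 14431 bases and those of VEGFB 1545, so shares of reads are not levels per length. The ratio of VEGFA to VEGFB reads, which needs no scaling between libraries, was 0.538, 0.546 and 0.729 with DMSO and 0.892, 0.972 and 0.958 with erianin. This ratio was chosen after the values were seen. Its means were 0.604 ± 0.108 and 0.941 ± 0.0425 (SD, n = 3), and the exact two-sided permutation test gave p = 0.1, the smallest value that 3 against 3 libraries allow. VEGFA was already higher and VEGFB lower in every erianin library, so the ratio had to separate the groups. The test therefore adds nothing to the values of the 2 genes. The longest transcripts of VEGFA and VEGFB have a GC content of 54.6% and 66.7%, and the part of GC content in the ratio was not tested.

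KITLG, the ligand of KIT (chr12:88492793-88580851, minus strand), was upregulated at a low level. Its raw counts were 16, 24 and 26 with DMSO and 48, 62 and 44 with erianin, or 0.657, 0.739 and 0.835 CPM against 1.41, 1.77 and 1.26 CPM. All erianin libraries lay above all DMSO libraries. The mean rose from 0.744 ± 0.0890 to 1.48 ± 0.267 CPM (SD, n = 3), with a log2 fold change of 0.98 (SE 0.24, 95% interval 0.41 to 1.55, adjusted p = 0.0358), which is 1.97-fold. The call was lost when DMSO replicate 1 or 2 or any erianin library was left out, with adjusted p-values between 0.0911 and 0.142, and it was kept without DMSO replicate 3 (1.07, adjusted p = 0.00739). KITLG has a GC content of 37.3%, the lowest of the 10 genes. With the GC trend removed its log2 fold change was 0.79 with an adjusted p of 0.0506, and the median of all genes in that fit was -0.083.

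PDGFA and PDGFB, the chains of the classical PDGF dimers, did not pass the test. PDGFA (chr7:497258-520296, minus strand) was measured at 18.8, 17.4 and 16.0 CPM with DMSO and at 13.9, 17.5 and 15.9 CPM with erianin, with a log2 fold change of -0.14 (SE 0.12, 95% interval -0.43 to 0.14, adjusted p = 0.482) that turned to 0.05 in limma on log2(TPM + 1). PDGFB (chr22:39223359-39244751, minus strand) was measured at 8.09, 9.18 and 7.51 CPM with DMSO and at 8.90, 8.16 and 7.76 CPM with erianin, with a log2 fold change of 0.00 (SE 0.13, 95% interval -0.30 to 0.30, adjusted p = 0.997). The libraries of both groups overlapped for both genes.

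**Figure D2:**
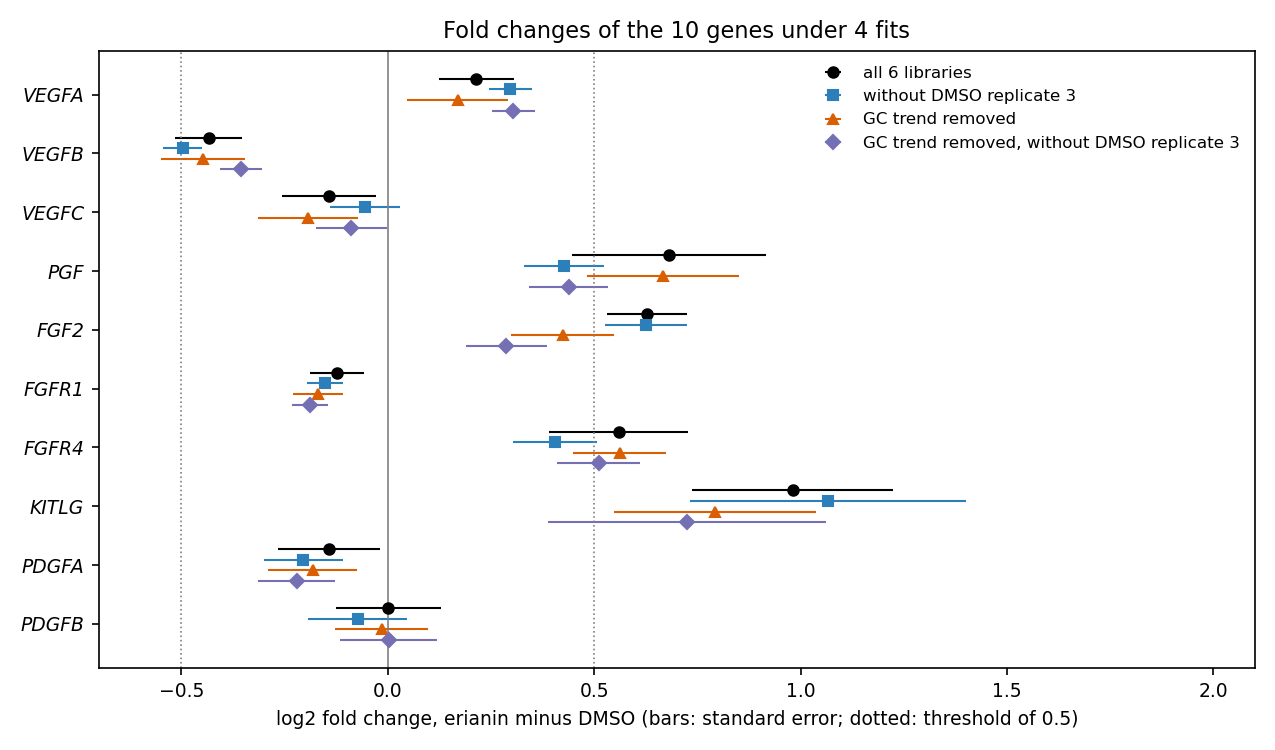
Log2 fold change of each of the 10 genes, erianin minus DMSO (horizontal axis), with its standard error as a bar, under 4 fits: all 6 libraries (black circles), without DMSO replicate 3 (blue squares), with each library's GC trend removed (orange triangles) and both together (purple diamonds). Dotted lines mark the threshold of 0.5: FGF2 moved from 0.63 to 0.42 and 0.29 when the GC trend was removed without and with leaving out DMSO replicate 3, and PGF from 0.68 to 0.43 without DMSO replicate 3.

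Levels of genes were ranked per length, as CPM per kb of the exons of a gene merged over its transcripts (GENCODE 29). Shares of reads given elsewhere also depend on gene length. The deposited TPM could not serve for this ranking. In 95.1% of 9699 well-counted genes the gene length behind the TPM matched, within 0.1%, the lengths of all annotated transcripts added together, and in 0.186% it matched the merged exons. Adding transcripts makes the length 1.17 times that of the merged exons for VEGFC, 3.46 times for VEGFA and 6.49 times for FGFR1, so genes with many transcripts stand lower in TPM than their exons imply. Comparisons of 1 gene between libraries by counts or CPM use no gene length and are not touched by this. In TPM the length of the gene itself cancels, but the library total also depends on the lengths of all genes. The deposited TPM summed to less in every DMSO library than in any erianin library. The part of these sums in the TPM fits was not tested.

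Per kb of exon, VEGFB was the most abundant of the 10 transcripts, at 51.9 to 75.8 CPM per kb over the 6 libraries. FGFR1 followed at 9.94 to 11.4 and VEGFC at 6.99 to 9.31 CPM per kb, and the ranges of these 3 genes did not overlap. These ranges cover the spread between libraries and not the choice of length. Merged exons span 13842 bases for FGFR1 and 4151 for PDGFA, whereas their longest transcripts have 6216 and 2305. Another length could therefore change the order of the genes. VEGFA was next at 4.32 to 5.48 CPM per kb and overlapped PDGFA at 3.35 to 4.54. PDGFA in turn overlapped FGFR4, and the following genes could not be ordered beyond their spread, with FGFR4 at 1.73 to 3.49, PDGFB at 2.0 to 2.44, PGF at 0.991 to 2.62 and FGF2 at 1.44 to 2.34 CPM per kb. KITLG was the least abundant at 0.106 to 0.286 CPM per kb. With erianin the mean levels were 2.28 ± 0.0748 CPM per kb for FGF2 and 2.55 ± 0.0795 for PGF, against 1.47 ± 0.0328 and 1.59 ± 0.524 with DMSO (SD, n = 3).

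**Figure D3:**
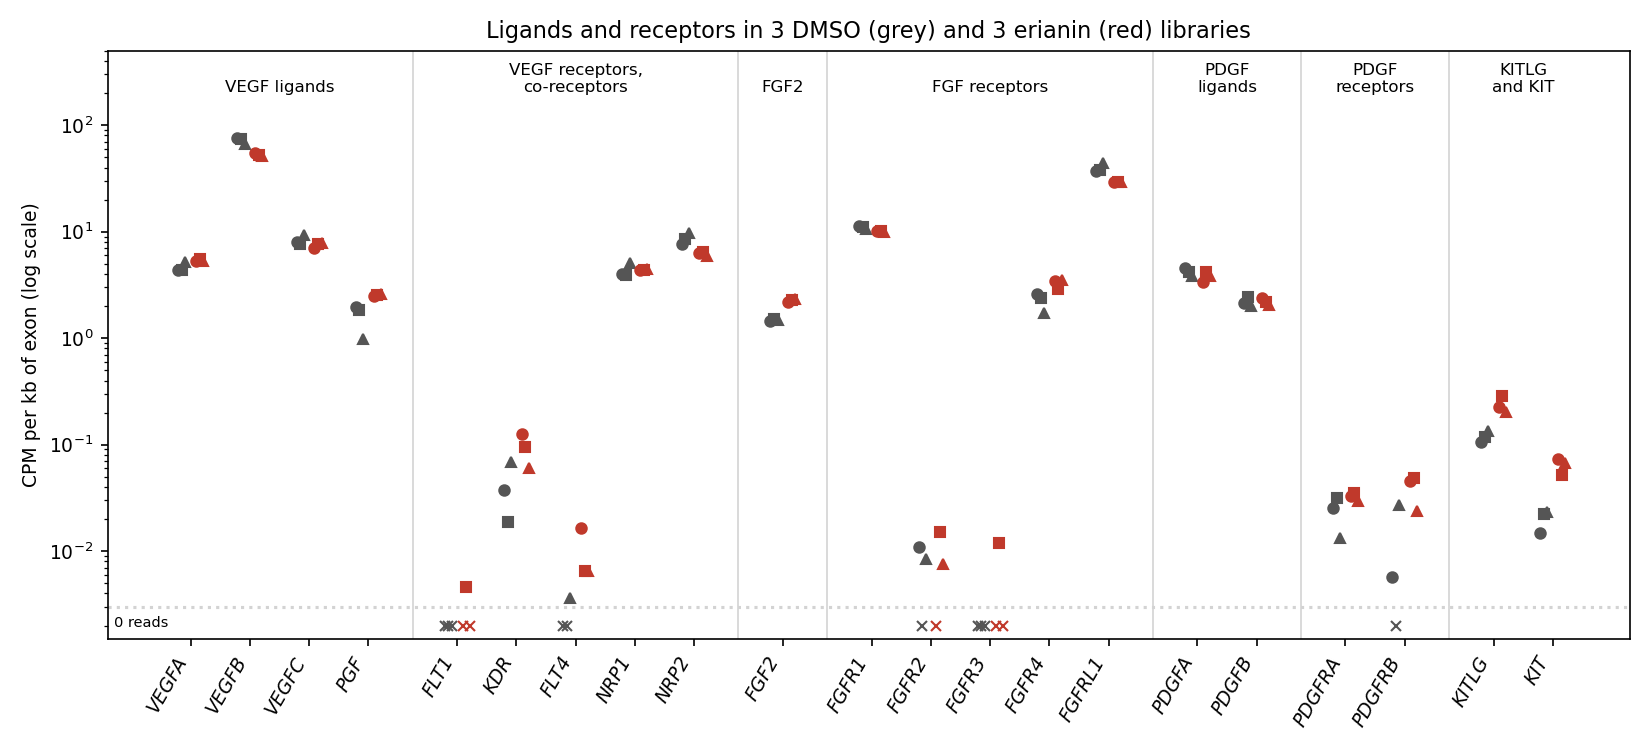
Level per length of VEGF, FGF and PDGF ligands and receptors, KITLG and KIT (CPM per kb of merged exon, log scale) in 3 DMSO (grey) and 3 erianin (red) libraries. Circles, squares and triangles are replicates 1, 2 and 3, and crosses in the lowest band are libraries with 0 reads. VEGFB was the highest ligand at 51.9 to 75.8 CPM per kb, and of the receptor tyrosine kinases plotted FGFR1 and FGFR4 alone stood above 1 CPM per kb.

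Among the receptor tyrosine kinases of these families FGFR1 held most reads. Of the counts on 10 receptor genes over the 6 libraries, FGFR1 held 27843 (90.8%) and FGFR4 2579 (8.41%). Per length the means over the 6 libraries were 10.5 CPM per kb for FGFR1 and 2.75 CPM per kb for FGFR4. The receptors that VEGFA, VEGFC, PDGF and KITLG bind were close to 0: KDR had 88 counts over the 6 libraries, PDGFRA 53, KIT 47, PDGFRB 36, FLT4 and FGFR2 10 each, and FLT1 and FGFR3 2 each. KIT had 2, 4 and 4 counts with DMSO and 14, 10 and 13 with erianin, and KDR 6, 4 and 14 with DMSO and 28, 22 and 14 with erianin. KDR was tested and did not pass (log2 fold change 1.16, SE 0.50, adjusted p = 0.162). Without DMSO replicate 3, KDR, KIT and PDGFRB passed both thresholds, on these few counts. In that fit they met the low-count filter only with their erianin libraries. The VEGF co-receptors NRP1 and NRP2, which also bind class 3 semaphorins, were abundant. NRP1 measured 50.1 ± 7.60 CPM with DMSO and 50.9 ± 0.520 CPM with erianin (SD, n = 3). NRP2 measured 107, 118 and 134 CPM with DMSO and 87.3, 88.7 and 81.8 CPM with erianin, a log2 fold change of -0.48 (SE 0.10, adjusted p = 0.0180) within the fold-change threshold, which it passed with the GC trend removed and without DMSO replicate 1.

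Around the 10 genes, 84 further genes of these pathways were examined, and 52 of them could be tested. Of these, 6 were upregulated and 1 downregulated, which is 7 of 52 against 8.73% of all genes tested, and their median log2 fold change was 0.07. Among 21 further FGF ligands, 5 were tested and none passed. FGF5, the most abundant, measured 26.5 ± 2.53 CPM with DMSO and 24.0 ± 1.58 CPM with erianin, FGF12 2.84 ± 0.159 and 2.43 ± 0.475 CPM, and FGF18 reached at most 0.343 CPM in any library and was not tested (SD, n = 3).

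Of 12 FGF receptors and cofactors beyond the 10 genes, 8 were tested and 3 were upregulated, all at low levels. GPC1, a cell surface heparan sulfate proteoglycan that holds FGFs, had 10, 18 and 6 counts with DMSO and 69, 70 and 80 with erianin, with a log2 fold change of 2.43 (SE 0.33, adjusted p = 0.00556). SDC2, a syndecan with a similar role, had 14, 18 and 32 counts with DMSO and 60, 46 and 92 with erianin (log2 fold change 1.39, SE 0.36, adjusted p = 0.0417). FGFBP1, a secreted carrier that frees FGF2 from the matrix, had 0, 6 and 2 counts with DMSO and 14, 22 and 37 with erianin (log2 fold change 2.90, SE 0.71, adjusted p = 0.0342). In each case the groups did not overlap. GPC1 and FGFBP1 met the low-count filter only with their erianin libraries, so a call lower was hardly open to them. Neither was tested when 10 counts were required in every library, because their DMSO counts fell below that. Among the abundant members, SDC4 measured 690 ± 152 and 828 ± 29.8 CPM (SD, n = 3, adjusted p = 0.296), SDC3 134 ± 0.920 and 95.1 ± 2.33 CPM (log2 fold change -0.495, adjusted p = 0.00486), and FGFRL1, an FGF receptor without a kinase domain, 165 ± 15.1 and 122 ± 0.80 CPM (log2 fold change -0.44, adjusted p = 0.0149), both within the fold-change threshold. SDC3 passed it in DESeq2, with no low-count filter, with the GC trend removed, and without DMSO replicate 2, DMSO replicate 3 or erianin replicate 3.

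PDGFRL, a PDGF receptor-like protein without a kinase domain, was upregulated, from 3.45, 2.53 and 2.25 CPM to 5.97, 4.86 and 5.54 CPM (log2 fold change 1.0, SE 0.19, adjusted p = 0.0158). PDGFC measured 20.1 ± 1.13 and 17.3 ± 1.12 CPM and PDGFD 1.02 ± 0.412 and 1.30 ± 0.162 CPM with DMSO and erianin (SD, n = 3), and neither passed. ANGPTL4, a secreted inhibitor of lipoprotein lipase that is named for its likeness to the angiopoietins and is not a ligand of the TIE receptors, was the most abundant upregulated gene of these lists. It measured 93.0, 78.3 and 52.6 CPM with DMSO and 189, 201 and 200 CPM with erianin, a log2 fold change of 1.40 (SE 0.19, adjusted p = 0.00535). TIE1 measured 1.67 ± 0.581 and 3.03 ± 0.426 CPM and ANGPT4 0.760 ± 0.128 and 0.557 ± 0.0391 CPM, and neither passed. TIE1, an endothelial marker, did pass in DESeq2, without DMSO replicate 3, and with the GC trend removed. SEMA3B, a semaphorin that binds neuropilins, rose from 4.64, 4.19 and 2.60 CPM to 7.61, 6.07 and 7.16 CPM (log2 fold change 0.87, SE 0.22, adjusted p = 0.0390), while SEMA3F measured 43.3 ± 5.30 and 44.9 ± 1.84 CPM and SEMA3C 15.9 ± 5.03 and 16.9 ± 0.845 CPM.

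PCSK6, a proprotein convertase that cleaves growth factor precursors, was the 1 downregulated gene of these lists. It measured 5.13, 4.81 and 5.01 CPM with DMSO and 1.84, 2.40 and 2.40 CPM with erianin, a log2 fold change of -1.17 (SE 0.16, adjusted p = 0.00567). FURIN, the most abundant convertase, which cleaves the precursors of VEGFC and the PDGF chains, measured 624 ± 68.6 and 473 ± 13.2 CPM (SD, n = 3), a log2 fold change of -0.40 (adjusted p = 0.0287) within the fold-change threshold. PCSK7 measured 30.9 ± 6.20 and 27.8 ± 0.273 CPM and CCBE1, a cofactor of VEGFC maturation, 1.32 ± 0.0359 and 1.5 ± 0.519 CPM, and neither passed. GPC1, ANGPTL4 and PCSK6 kept their calls with any 1 erianin library left out, whereas SDC2, FGFBP1, PDGFRL and SEMA3B lost theirs. All 7 genes were also called with the GC trend removed, with and without DMSO replicate 3.

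None of the 10 receptor adaptors and none of the 10 genes of oxygen sensing and VEGFA transcription was called, and all of them were tested. Without DMSO replicate 3, 3 of them were called: the FGF receptor adaptor FRS2, HIF1A and the oxygen sensor EGLN3. EGLN3 was also called with the GC trend removed. It had 4, 3 and 0 counts with DMSO and 12, 14 and 16 with erianin. EGLN3 met the low-count filter only with its erianin libraries. With all libraries its log2 fold change was 2.28 (SE 0.66, adjusted p = 0.0589). FRS2 measured 9.69, 10.2 and 18.2 CPM with DMSO and 17.9, 21.9 and 18.4 CPM with erianin, so its groups overlapped through DMSO replicate 3. Some had an adjusted p under 0.05 within the fold-change threshold: SHC1, the adaptor that links receptors to RAS, at 490 ± 33.5 and 374 ± 3.59 CPM (log2 fold change -0.39, adjusted p = 0.0150), the phosphatase gene PTPN11 at 170 ± 12.1 and 218 ± 6.59 CPM (0.36, adjusted p = 0.0213), and the stress factor ATF4, which can drive VEGFA, at 816 ± 50.7 and 646 ± 15.5 CPM (-0.34, adjusted p = 0.0233) (SD, n = 3). CBL, the ubiquitin ligase of these receptors, measured 290 ± 9.80 and 251 ± 13.8 CPM, VHL, which marks HIF proteins for degradation, 172 ± 22.1 and 141 ± 7.88 CPM, and SP1, a factor that binds GC boxes, 184 ± 33.2 and 154 ± 7.37 CPM. These 3 genes did not pass.

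**Figure D4:**
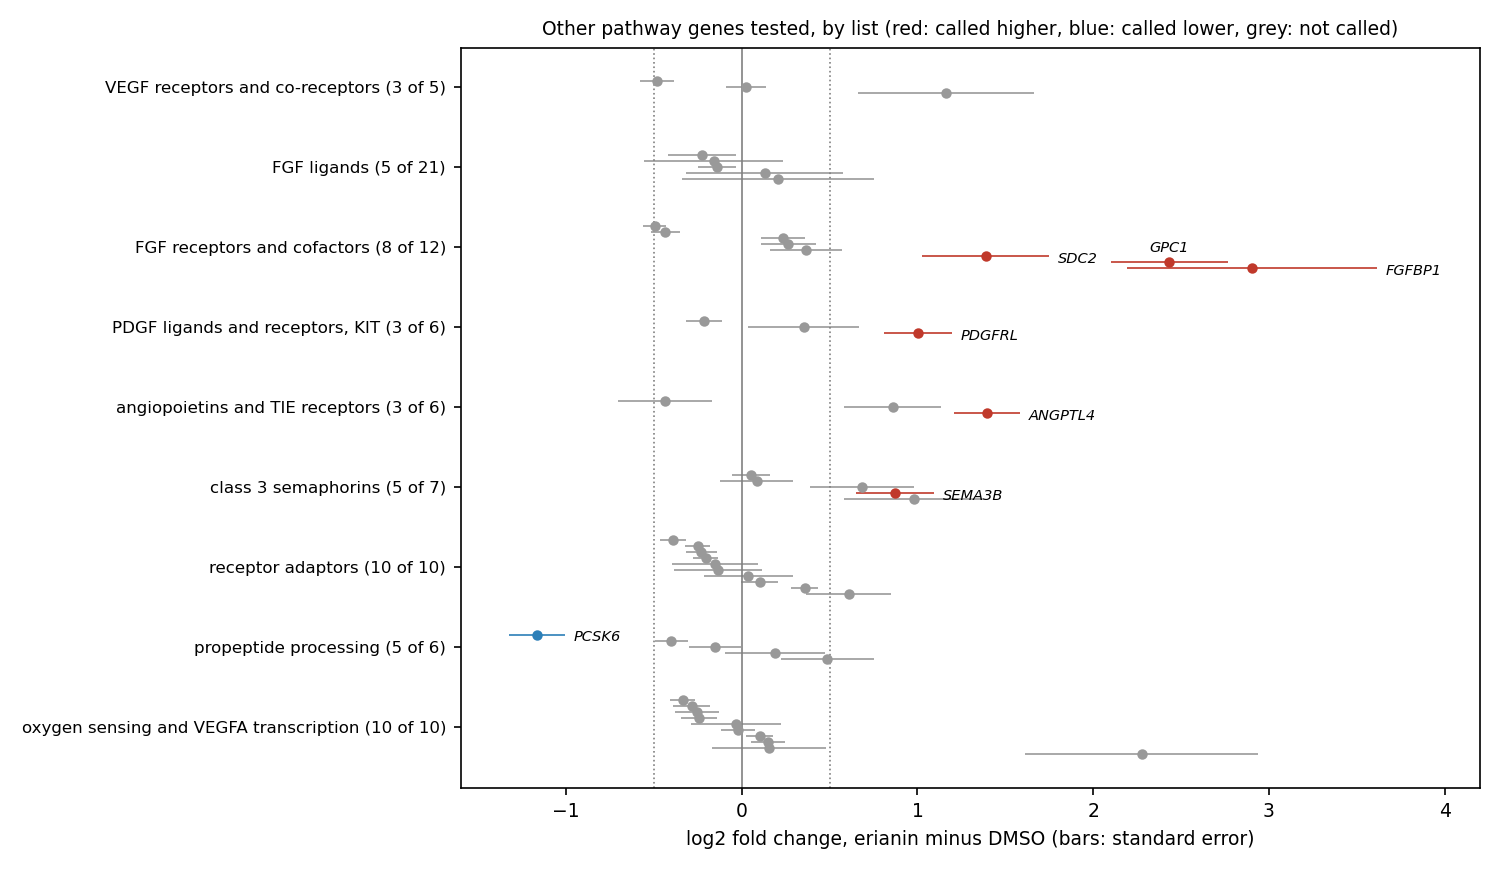
Log2 fold change, erianin minus DMSO (horizontal axis), of the 52 tested genes in each list, with the standard error as a bar; the numbers beside each list are genes tested of genes in the list. The 6 upregulated genes (red) ran from SEMA3B at 0.87 to FGFBP1 at 2.90, and PCSK6 (blue) stood at -1.17.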

How the data were processed

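RNA-seq of 6 CAL62 libraries was analysed from a table of raw counts per gene and a table of TPM. The authors deposited both tables; the study's methods name the BGISEQ-500 platform and DESeq2. The submitters' processing notes list fastp 0.23.2, STAR 2.7.10, featureCounts 2.0.1 and StringTie 2.2.1 and the build GRCh38 (hg38), without roles or order, and strand use is not given in the sources used here. The deposited counts are whole numbers without normalization, and the deposited TPM divide them by a gene length and a library total.

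Of 65807 rows, 26480 carry no identifier; they hold between 0.00385% and 0.00515% of the counts and were left out. Of 39168 Ensembl identifiers, 38259 matched a symbol, and of rows that share an identifier the one with most counts was used. Counts were fitted with edgeR 4.0.16 in R 4.3.3 (TMM, filterByExpr by group, glmQLFit, glmQLFTest, no replicate term, all 6 libraries), with Benjamini-Hochberg adjustment over all 12821 genes tested. An adjusted p under 0.05 with a log2 fold change beyond 0.5 in either direction defined a call. Standard errors came from the quasi-likelihood F statistic. Depth ranged from 25776301 to 34107727 counts per library, and genes under about 1 CPM rest on few counts. Positions, exons, GC content and strand came from GENCODE 29, and promoter sequences from RefSeq (GRCh38.p14).

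Alternatives were DESeq2 1.42.0, RLE and upper-quartile factors, the filter on low counts dropped or set to 10 counts per library, limma 3.58.1 on log2(TPM + 1) for genes with a mean TPM of 1 or more, repeated with a pseudocount of 0.1 or for all genes, the replicate number as a block, each library left out, each library's GC trend removed (loess, span 0.5) and other fold-change thresholds. Removal of the GC trend together with leaving out DMSO replicate 3 was chosen after seeing the data. The steps were tested on simulated counts.

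The 10 genes, the pathway lists and the tests were chosen with earlier results of these data known. Beside the 10 genes, the text names all called genes of the lists and up to 3 genes of each list in order of mean TPM. It also names 10 receptor tyrosine kinases and some markers of cell type. Named too are the 3 genes most correlated with the gene of highest mean CPM and with the gene of smallest adjusted p. HIF1A, FRS2 and EGLN3 are outside this rule and were named after their values were seen. Some genes examined are not reported here. Python 3.11.15, pandas 2.3.3 and matplotlib 3.10.9 were used for tables and plots.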

Additional observations from a re-analysis of the deposited data

How the results depend on the processing

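The number of the 10 genes called (2) moved with most settings. With the GC trend removed it was again 2, but these were PGF and FGFR4 in place of FGF2 and KITLG. It was 4 with DESeq2, adding PGF and FGFR4; 1 with limma on log2(TPM + 0.1), on log2(TPM + 1) without a filter and with the replicate block, each calling FGF2; 1 with the GC trend removed and DMSO replicate 3 left out, calling FGFR4; and 0 at a fold-change threshold of 1. Leaving out 1 library gave between 0 and 2 calls, with 0 for any erianin library. The other pathway genes called (7) were 11 with the GC trend removed, 13 with DMSO replicate 3 also left out, 14 without a fold-change threshold, and 3 to 16 with 1 library left out, 16 without DMSO replicate 3. Genes called over the whole table (1119) were 665 with the replicate block, 1737 with the GC trend removed and DMSO replicate 3 left out, 1912 without a threshold, 352 at a threshold of 1, and 309 to 2282 with 1 library left out, 2282 without DMSO replicate 3. With upper-quartile factors 822 genes were higher and 299 lower, and with limma on log2(TPM + 1) 1098 were higher and 94 lower, whereas with the GC trend removed 642 were higher and 713 lower. Fewer libraries enter the leave-out fits, and otherwise the cause was not tested.

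The replicate numbers are not known to pair the libraries: same-numbered libraries deviated from their group means with correlations of 0.00138, 0.0253 and -0.0329. With the replicate block, KITLG had a log2 fold change of 0.98 and an adjusted p of 0.0996, FGF2 0.63 and 0.0428, and VEGFB -0.43 and 0.0501.

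The directions of VEGFA, VEGFB, PGF, FGF2, FGFR4 and KITLG were the same in every alternative run. In the TPM fits the median log2 fold change of all genes rose to 0.18 with log2(TPM + 1), 0.20 with log2(TPM + 0.1) and 0.12 without the filter. Relative to these medians VEGFC, FGFR1 and PDGFA stayed lower, but their own values turned positive, at 0.0582, 0.0697 and 0.0474 with log2(TPM + 1), with or without the filter, and at 0.0594, 0.0756 and 0.0505 with log2(TPM + 0.1). PDGFB, at 0.0016, was on the other side of 0 with RLE factors (-0.0023), DESeq2 (-0.0081), no low-count filter (-0.016), the GC trend removed (-0.015), and without DMSO replicate 1, DMSO replicate 3 or erianin replicate 1, and ran from -0.072 to 0.082 with 1 library left out. Counts limit KITLG, whose 16 to 62 reads per library give an SE of 0.24, the largest of the 10 genes.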
